A study of Homo sapiens with 4 samples.

Results

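The histone cluster genes are the genes for the core histones H2A, H2B, H3 and H4 and the linker histone H1 that lie together on chromosomes 1 and 6, with a lone H4 gene on chromosome 12. They were taken from a table of raw counts as every symbol starting with HIST1H, HIST2H, HIST3H or HIST4H, without those ending in PS and a number, which name pseudogenes. This gave 75 of 40205 symbols, of which 30 had a summed count of 10 or more over the 4 libraries. The 75 still include HIST2H2BA, HIST2H2BB, HIST2H2BC, HIST2H2BD and HIST3H2BA, which have no annotated coding sequence. By class, 3 of 6 H1 symbols, 6 of 17 H2A, 11 of 23 H2B, 3 of 14 H3 and 7 of 15 H4 reached that count.

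The cells were A549, a human lung adenocarcinoma cell line, in 4 RNA-seq libraries. In 2 libraries the cells had received small interfering RNA (siRNA) against SBF2-AS1, a long non-coding RNA (Knockdown-670 and Knockdown-732; the labels leave these numbers unexplained), and in 2 a negative control siRNA (control libraries 1 and 2). Both groups were transfected with the same lipid reagent and harvested after 24 h. Separate cultures are not stated for the replicates, so the p-values reflect the spread between these 4 libraries alone, and that spread may be technical.

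A dividing cell makes most of its histone protein in S phase from these clustered genes. Their mRNAs are known for ending in a conserved stem-loop in place of a poly(A) tail; the stem-loop-binding protein SLBP and the U7 snRNP direct the cut behind it, and the mRNAs are degraded when DNA synthesis stops. Some of the genes also carry a polyadenylation signal further downstream, and make a longer, polyadenylated mRNA that is known from cells that are differentiating or have left the cycle. The labels give total RNA as the molecule and do not state whether polyadenylated RNA was selected, so it is not known which form of mRNA a count covers.

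The stem-loop itself is shown for 5 of the 6 genes that passed the test below and for HIST1H2AC, which took the most counts, since it is the element that sets these mRNAs apart. The sequences come from GENCODE transcripts on GRCh38, matched by symbol because the counts were made on GRCh37, and are read 5′ to 3′ on the transcript, and capitals mark the core of 16 bases, 6 for each arm and 4 for the loop. No core was found in the model of HIST1H1E, the remaining gene that passed.
HIST1H4H: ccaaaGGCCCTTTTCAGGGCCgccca
HIST1H3E: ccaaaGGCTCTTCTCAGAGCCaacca
HIST2H2BE: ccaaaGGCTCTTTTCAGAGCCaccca
HIST1H2BD: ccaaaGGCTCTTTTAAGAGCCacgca
HIST1H2BL: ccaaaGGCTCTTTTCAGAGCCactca
HIST1H2AC: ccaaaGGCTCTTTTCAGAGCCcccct
They lie at chr6:26285126-26285151 (- strand, HIST1H4H), chr6:26225591-26225616 (+ strand, HIST1H3E), chr1:149886183-149886208 (- strand, HIST2H2BE), chr6:26158582-26158607 (+ strand, HIST1H2BD), chr6:27807479-27807504 (- strand, HIST1H2BL), chr6:26124664-26124689 (+ strand, HIST1H2AC). The core was found in the annotated transcripts of 35 of the 75 members and 20 of the 30 with 10 or more counts. Among these 20 it took 6 forms, and in 18 of them all 6 bases of one arm paired with the other. HIST2H2BE, HIST1H2BL, HIST1H2AC and 6 other members shared the same core. HIST1H4H shared its form with HIST1H4E and HIST4H4. Only HIST1H3E among the 20 had its particular loop. Of the 10 members with 10 or more counts and no core in the model, 7 had a model of coding length only, which holds no 3′ end.

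The annotated length beyond the stem-loop differed widely between members. It reached over 100 bases in 17 of these 20 members, and 12 of those stretches held the letters AATAAA, the usual polyadenylation signal. HIST1H3E had 1862 bases after the stem-loop in its longest transcript, HIST2H2BE 1729, HIST1H4H 1655 and HIST1H2AC 1128. HIST1H2BL and HIST1H2BD had 40 and 39, although HIST1H2BD also has a spliced transcript. Of the 25 members with over 100 bases after the core, 17 (68.0%) had 10 or more counts, with a median summed count of 17. Of the 10 with at most 100 bases, 3 (30.0%) did, with a median of 2.5. Of the 40 members with no core in the model, 10 had 10 or more counts, with a median summed count of 2 and a highest of 625. The counts were not corrected for transcript length, which also differed. The longest transcript had 2194 bases for HIST2H2BE and 488 for HIST1H2BL. These shares set counts beside an annotation that was not made from these cells. A link between the length after the core and expression was not tested.

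**Figure D1:**
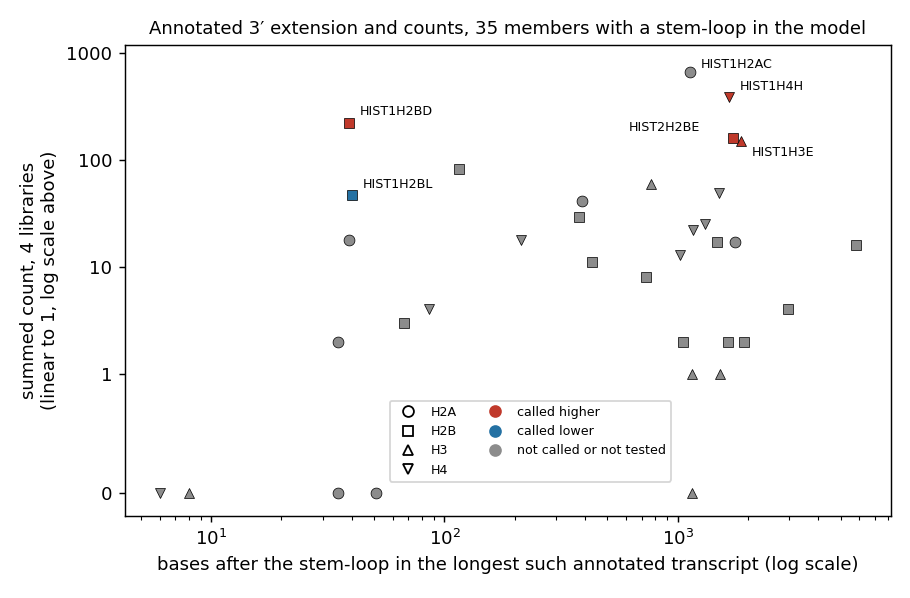
Summed count over the 4 libraries (vertical axis) against the bases annotated after the stem-loop in the longest transcript that holds it (horizontal axis, log scale), 1 point for each of 35 members with a stem-loop in the model. Of these 35, the members with more than 100 summed counts are HIST1H2AC, HIST1H4H, HIST1H2BD, HIST2H2BE and HIST1H3E. Of these 5, 4 have over 1000 bases after the stem-loop. Others with over 1000 bases have few counts, such as HIST1H2BH (1640 bases) and HIST3H2BB (1917 bases) with 2 each. HIST1H2BK (625 counts) and HIST1H1C (249 counts) have no stem-loop in the model and are not shown.

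The libraries held 12149767 and 12894529 counts in the knockdown and 12701132 and 12938143 in the controls. SBF2-AS1 had 15 and 18 counts in the knockdown libraries and 57 and 79 in the controls, and its log2 fold change was -1.94 (adjusted p = 3.18e-05 in edgeR). The A549 markers KRT8 and KRT18, epithelial keratins, stood at 953 to 2468 CPM (counts scaled to the TMM-adjusted library size) in every library. The 7 A549 markers together summed to 6006 and 6109 CPM in the knockdown and 11179 and 10445 CPM in the controls, 5 of them lower and 1 higher, and their part in the histone values was not tested. Most markers of other cell types were near 0. The 4 fibroblast markers summed to 0.315 to 1.44 CPM in the knockdown and 0.377 to 1.08 CPM in the controls. Endothelial and erythroid markers summed to less than 1 CPM in each library. Of the immune markers only CD14 was above 1 CPM. It stood at 8.65 and 9.60 CPM in the knockdown and 12.04 and 9.88 CPM in the controls. The A549 marker EPCAM was below CD14 in each library, at 6.19 and 5.11 CPM in the knockdown and 9.11 and 7.55 CPM in the controls. HLA-DRA had no count in any library.

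The cluster genes were scarce. All 75 together had 870 and 936 counts in the knockdown libraries and 741 and 767 in the controls. Scaled with TMM, their sum was 73.7 ± 0.0855 CPM in the knockdown and 57.5 ± 0.479 CPM in the controls (SD, n = 2 each), so both knockdown libraries lay above both controls. An SD from 2 libraries is itself uncertain, and at 741 to 936 counts in a library the counting error is larger than these SDs. Without HIST1H4H the sums were 61.1 and 61.5 CPM in the knockdown and 53.5 and 54.9 CPM in the controls. HIST1H2AC held 20.2% of all counts of the members, HIST1H2BK 18.9%, HIST1H4H 11.8%, HIST1H1C 7.51% and HIST1H2BD 6.76%, so 5 genes made up 65.1%. In bulk RNA, fewer cells that express a gene and less of its RNA in each cell cannot be told apart.

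**Figure D2:**
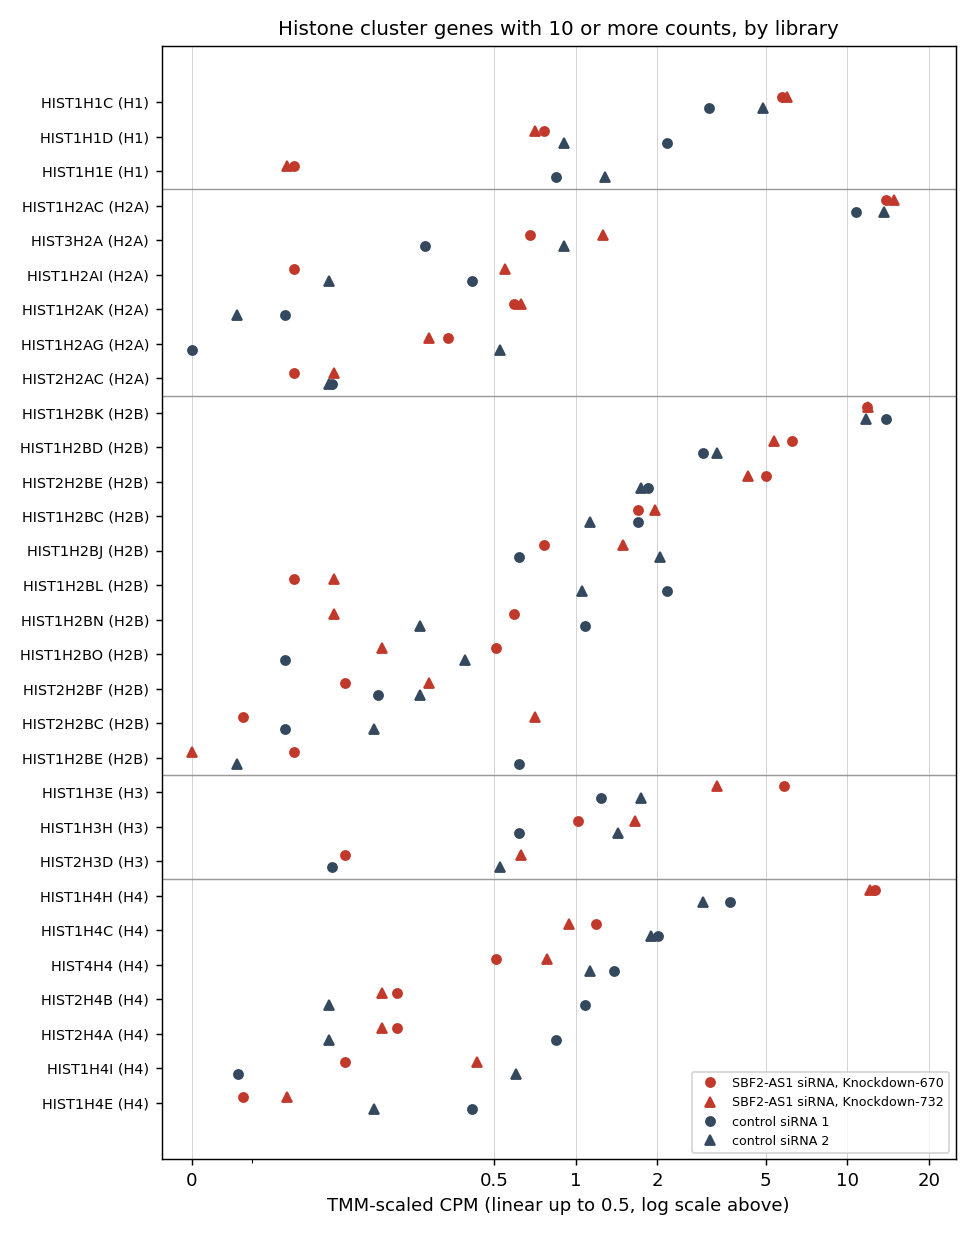
TMM-scaled CPM in each library (horizontal axis, linear to 0.5 and logarithmic above) of the 30 histone cluster genes with 10 or more counts, by class. Red points are the SBF2-AS1 siRNA libraries and dark points the control libraries; HIST1H4H, HIST1H3E, HIST2H2BE and HIST1H2BD lie to the right of both controls in the knockdown, HIST1H1E and HIST1H2BL to the left.

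The comparison was SBF2-AS1 siRNA against control siRNA, tested in edgeR over all genes. The filter on low counts left 16 of the 30 members to test. Of these 4 rose (HIST1H4H, HIST1H3E, HIST2H2BE and HIST1H2BD), 2 fell (HIST1H1E and HIST1H2BL) and 10 did not pass an adjusted p of 0.05. Over all 16120 genes tested 46.3% passed, 23.5% higher and 22.8% lower, beside 6 of 16 members (37.5%), so the members' count was not above the background. Both knockdown libraries lay outside the range of the controls for 11 of the 16 members (68.8%), 6 above and 5 below. Among all tested genes this held for 72.6%, with 36.4% above and 36.2% below. The median log2 fold change of the 16 was 0.30, and -0.002 over all tested genes. That median leaves out members too scarce to test. Of the 16, 3 (HIST1H1D, HIST1H1E and HIST1H2BL) had 10 counts or more only in control libraries. They could enter the test only by being higher there, and they include both members that fell.

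**Figure D3:**
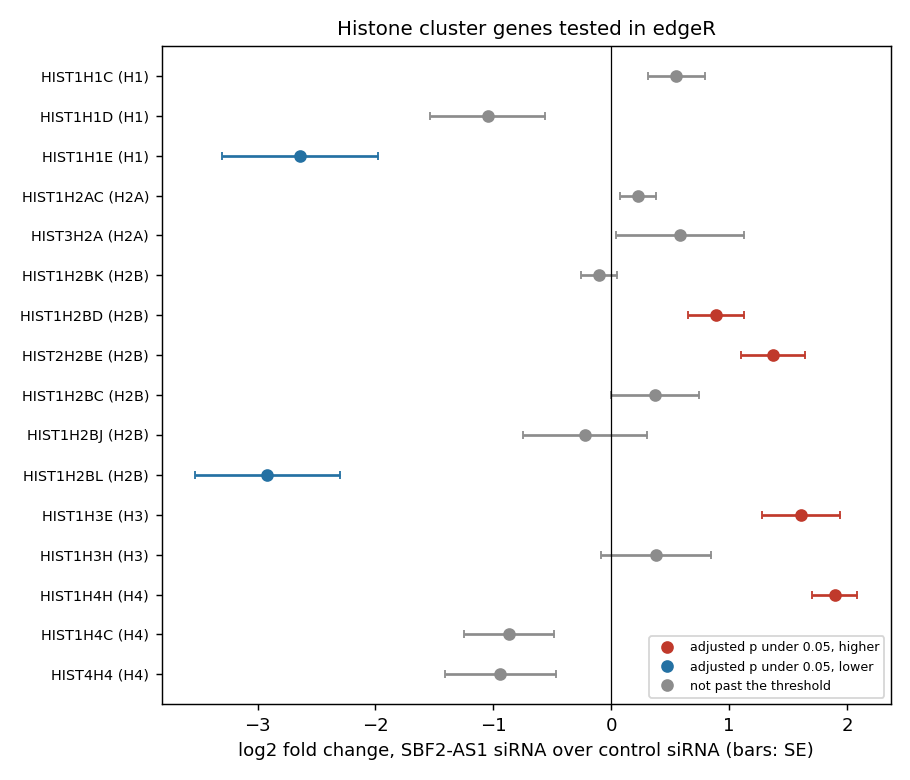
Log2 fold change of SBF2-AS1 siRNA over control siRNA for the 16 histone cluster genes tested, with the standard error as bars, by class. The values run from -2.92 for HIST1H2BL to 1.89 for HIST1H4H, and members of the same class stand on both sides of 0 in H1, H2B and H4.

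In H4, the histone that pairs with H3 at the centre of the nucleosome, 1 of 3 tested genes rose and none fell. HIST1H4H had 149 and 154 counts in the knockdown and 48 and 39 in the controls. This is 12.4 ± 0.365 CPM in the knockdown and 3.32 ± 0.539 CPM in the controls (SD, n = 2 each). The log2 fold change was 1.89 (standard error 0.19, adjusted p = 2.51e-07 in edgeR). The groups were far apart, and no other member had so small a p. HIST1H4C had 14 and 12 counts in the knockdown and 26 and 25 in the controls, which is 1.07 ± 0.172 CPM in the knockdown and 1.95 ± 0.0852 CPM in the controls (SD, n = 2 each). Its log2 fold change of -0.87 (SE 0.38) did not pass (adjusted p = 0.0702 in edgeR). HIST4H4, the lone gene on chromosome 12, had 6 and 10 counts in the knockdown and 18 and 15 in the controls (log2 fold change -0.94, adjusted p = 0.113 in edgeR). Both knockdown libraries were below both controls for HIST1H4C and HIST4H4, the opposite side from HIST1H4H. HIST2H4A and HIST2H4B, whose coding sequences are 100% identical, had 4 and 4 counts each in the knockdown and 11 and 3, and 14 and 3, in the controls. Their reads may have been split or counted for both, and they were too scarce to test. HIST1H4I, with 3 and 6 counts in the knockdown and 1 and 8 in the controls, and HIST1H4E, with 1 and 2 in the knockdown and 6 and 4 in the controls, were not tested either.

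In H3, 1 of 2 tested genes rose. HIST1H3E had 69 and 42 counts in the knockdown and 16 and 23 in the controls. The knockdown libraries differed from each other, at 5.85 and 3.30 CPM, but both were above the controls at 1.24 and 1.74 CPM. The log2 fold change was 1.61 (standard error 0.33, adjusted p = 0.000665 in edgeR). HIST1H3H had 12 and 21 counts in the knockdown and 8 and 19 in the controls, which overlap; its sign changed when control library 1 or Knockdown-732 was left out (log2 fold change 0.38, 95% interval -0.60 to 1.36, adjusted p = 0.53 in edgeR). HIST2H3D had 3 and 8 counts in the knockdown and 3 and 7 in the controls and was not tested.

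H2B, which pairs with H2A on the outer faces of the nucleosome, had the most tested genes: 2 of 6 rose and 1 fell. HIST2H2BE had 59 and 55 counts in the knockdown and 24 and 23 in the controls, which is 4.66 ± 0.477 CPM in the knockdown and 1.79 ± 0.0828 CPM in the controls (SD, n = 2 each). Its log2 fold change was 1.37 (standard error 0.28, adjusted p = 0.000483 in edgeR). HIST1H2BD had 74 and 68 counts in the knockdown and 38 and 44 in the controls, a log2 fold change of 0.89 (standard error 0.24, adjusted p = 0.00464 in edgeR). In DESeq2 this gene stood at an adjusted p of 0.0502, at the edge of the threshold. HIST1H2BD is annotated across an antisense gene, AL353759.1, and a pseudogene, so some of its reads may belong to them. HIST1H2BL had 2 and 3 counts in the knockdown and 28 and 14 in the controls. It had 10 counts or more only in control libraries, so it could enter the test only by being higher there. The groups did not overlap, and the log2 fold change was -2.92 (standard error 0.62, adjusted p = 0.000762 in edgeR). From the pooled counts of 5 and 42, the ratio of knockdown to control was 0.127, with an exact 95% interval of 0.0393 to 0.321 that covers counting error only. Without control library 1 the call was lost (log2 fold change -2.32, adjusted p = 0.0537 in edgeR).

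HIST1H2BK, with 139 and 152 counts in the knockdown and 179 and 155 in the controls, held the second largest share of the members' counts. Its libraries overlapped after scaling, at 11.8 and 11.96 CPM in the knockdown and 13.8 and 11.7 CPM in the controls, and the 95% interval of its log2 fold change ran from -0.42 to 0.21 around -0.10 (adjusted p = 0.603 in edgeR). HIST1H2BC had 20 and 25 counts in the knockdown and 22 and 15 in the controls. HIST1H2BJ had 9 and 19 counts in the knockdown and 8 and 27 in the controls. Both overlapped between groups and did not pass (adjusted p = 0.437 and 0.754 in edgeR). The other 5 H2B symbols with 10 or more counts, HIST1H2BE, HIST1H2BN, HIST1H2BO, HIST2H2BC and HIST2H2BF, were too scarce to test and overlapped between groups, with 0 to 14 counts in a library.

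Neither tested H2A gene passed. HIST1H2AC had 163 and 188 counts in the knockdown and 139 and 181 in the controls. At 14.3 ± 0.687 CPM in the knockdown and 12.2 ± 2.07 CPM in the controls (SD, n = 2 each) its knockdown libraries were only just above both controls, and its log2 fold change of 0.23 (95% interval -0.09 to 0.55) did not pass (adjusted p = 0.233 in edgeR). With an added correction for GC content and transcript length it stood at 0.54 and passed (adjusted p = 0.00421 in edgeR). HIST3H2A, from the small cluster of HIST3 genes on chromosome 1, had 8 and 16 counts in the knockdown and 5 and 12 in the controls (log2 fold change 0.58, adjusted p = 0.4 in edgeR). Of the 4 others, HIST1H2AG, HIST1H2AI and HIST2H2AC overlapped between groups. HIST1H2AK had 7 and 8 counts in the knockdown and 2 and 1 in the controls, and with no filter on low counts its log2 fold change was 2.32 (adjusted p = 0.0573 in edgeR). HIST1H2AK lies on the opposite strand within the annotated span of HIST1H2BN, and without knowing whether strand was used their reads cannot be told apart.

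In H1, the linker histone that binds the DNA entering and leaving the nucleosome, 1 of 3 tested genes fell. Of these 3, HIST1H1E and HIST1H1D had 10 counts or more only in control libraries. Both could enter the test only by being higher there. HIST1H1E, which encodes H1.4, had 2 and 2 counts in the knockdown and 11 and 17 in the controls. The log2 fold change was -2.64 (standard error 0.66, adjusted p = 0.00315 in edgeR), and the ratio of pooled counts was 0.153 with an exact 95% interval of 0.0389 to 0.437. Without control library 2 the call was lost (log2 fold change -2.31, adjusted p = 0.099 in edgeR). HIST1H1C, which encodes H1.2, had 68 and 76 counts in the knockdown and 40 and 65 in the controls (log2 fold change 0.55, standard error 0.24, adjusted p = 0.0689 in edgeR). HIST1H1D, which encodes H1.3, had 9 and 9 counts in the knockdown and 28 and 12 in the controls (log2 fold change -1.05, standard error 0.49, adjusted p = 0.0877 in edgeR). Knockdown and control libraries did not overlap for either gene, with HIST1H1C above and HIST1H1D below the controls. Both values rested on the spread between the controls: without control library 1 they were 0.25 and -0.30, and without control library 2 they were 0.92 and -1.55 and passed (adjusted p = 0.0098 and 0.0255 in edgeR). The H1 class as a whole summed to 6.89 ± 0.0396 CPM in the knockdown and 6.60 ± 0.703 CPM in the controls (SD, n = 2 each), which overlap.

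**Figure D4:**
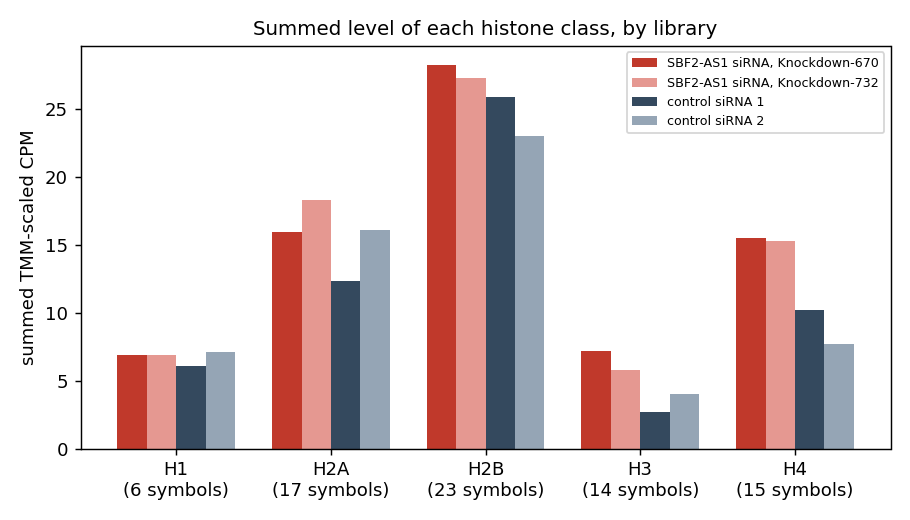
Summed TMM-scaled CPM of all symbols of each histone class in each library, with the SBF2-AS1 siRNA libraries in red and the control libraries in grey. The H2B, H3 and H4 bars are higher in both knockdown libraries (means of 27.8 CPM in the knockdown and 24.4 CPM in the controls for H2B, 6.51 CPM in the knockdown and 3.35 CPM in the controls for H3, and 15.4 CPM in the knockdown and 8.94 CPM in the controls for H4), and the H1 and H2A bars overlap between groups. Without HIST1H4H, the other H4 symbols were lower, at 2.88 and 3.15 CPM in the knockdown and 6.48 and 4.75 CPM in the controls. Of their 84 counts in control library 1, HIST2H4A and HIST2H4B held 11 and 14. The coding sequences of these 2 are identical, so their reads may have been counted for both. Without HIST1H3E, the other H3 symbols overlapped, at 1.36 and 2.52 CPM in the knockdown and 1.47 and 2.26 CPM in the controls. HIST1H4H and HIST1H3E were left out for their rise in these same data.

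The other 45 symbols had a summed count of 8 or less, and 17 of them had no count. Together they had 17 and 16 counts in the knockdown and 27 and 21 in the controls. The members nearest the limit of 10 were HIST1H2BE and HIST2H2AC, with 11 counts each, inside it, and HIST1H2BF and HIST1H3B, with 8 each, outside it. Among those at 0 in every library were HIST1H1A, HIST1H1B and HIST1H3A. A count of 0 allows up to 3 counts in a library, so these genes are not shown to be silent.

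The members were also set apart by whether they are known, as background, to make polyadenylated mRNA. That list of 9 genes (HIST1H1C, HIST1H2AC, HIST1H2BC, HIST1H2BD, HIST1H2BJ, HIST1H2BK, HIST1H4H, HIST2H2BE and HIST3H2A) summed to 58.4 and 59.2 CPM in the knockdown and 38.8 and 42.3 CPM in the controls. Of the 9, 3 rose and none fell, beside 23.5% higher and 22.8% lower among all tested genes, and 3 of 9 is too few to read against that share. The 66 other members summed to 15.3 and 14.4 CPM in the knockdown and 18.4 and 15.5 CPM in the controls, with 1 higher and 2 lower among 7 tested. HIST1H4H alone gave 12.6 and 12.1 CPM of the first sum in the knockdown and 3.71 and 2.94 CPM in the controls. Without HIST1H3E, the remaining 65 members summed to 9.49 and 11.1 CPM in the knockdown and 17.1 and 13.8 CPM in the controls. HIST1H4H and HIST1H3E were picked here for their rise in these same data, and the sums were not tested.

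Promoters of histone genes are known for a TATA box and CCAAT boxes, for the octamer bound by OCT1 in H2B promoters, and for an H1 box in H1 promoters. In RefSeq windows from 250 bases before to 50 bases after the start (GRCh38.p14, on file for 60 members), the letters CCAAT stood on either strand in 83.3% of members and 35.4% of all 27305 promoters, and TATAAA in 66.7% of members and 12.3% of all. The octamer ATTTGCAT was found in 9 of 13 H2B and 11 of 16 H2A windows and in none of H1, H3 or H4, against 1.83% of all promoters. The H1 box AAACACA was in all 6 H1 windows, against 5.79% of all. CCAAT was in 3 of 13 H4 windows, and in every window of the 4 other classes. The E2F motif TTTCCCGC was in 1 of 60 member windows, against 1.64% of all. Head-to-head neighbours share much of a window, so these counts are not independent.

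Windows are printed for 4 genes that passed the test, 2 higher and 2 lower, with every match to these 5 motifs in capitals, 5′ to 3′ in the direction of the gene.
HIST2H2BE: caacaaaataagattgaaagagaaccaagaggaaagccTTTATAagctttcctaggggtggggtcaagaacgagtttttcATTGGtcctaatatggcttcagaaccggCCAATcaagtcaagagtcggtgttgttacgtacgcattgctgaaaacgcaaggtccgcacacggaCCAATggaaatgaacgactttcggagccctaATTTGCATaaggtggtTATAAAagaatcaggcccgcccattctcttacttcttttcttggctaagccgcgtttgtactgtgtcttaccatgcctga
HIST1H2BL: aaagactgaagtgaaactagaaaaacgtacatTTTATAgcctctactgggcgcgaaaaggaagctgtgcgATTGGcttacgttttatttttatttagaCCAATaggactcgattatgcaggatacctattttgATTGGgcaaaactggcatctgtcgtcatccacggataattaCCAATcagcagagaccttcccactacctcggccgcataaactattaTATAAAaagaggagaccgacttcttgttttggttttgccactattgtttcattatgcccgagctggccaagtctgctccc
HIST1H1E: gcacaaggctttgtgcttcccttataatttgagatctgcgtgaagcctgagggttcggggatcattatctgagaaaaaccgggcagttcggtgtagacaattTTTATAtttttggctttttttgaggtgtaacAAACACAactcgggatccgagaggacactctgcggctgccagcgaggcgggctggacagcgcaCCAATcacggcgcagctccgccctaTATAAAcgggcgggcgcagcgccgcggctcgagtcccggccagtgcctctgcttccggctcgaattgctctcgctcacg
HIST1H4H: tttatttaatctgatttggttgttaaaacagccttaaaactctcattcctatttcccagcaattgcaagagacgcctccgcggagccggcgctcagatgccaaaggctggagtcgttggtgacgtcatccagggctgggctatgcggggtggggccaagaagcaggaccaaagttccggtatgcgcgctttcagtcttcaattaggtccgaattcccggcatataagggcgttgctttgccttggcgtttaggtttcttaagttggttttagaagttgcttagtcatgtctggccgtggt
They are chr1:149886633-149886932 (- strand, HIST2H2BE), chr6:27807880-27808179 (- strand, HIST1H2BL), chr6:26156079-26156378 (+ strand, HIST1H1E), chr6:26285485-26285784 (- strand, HIST1H4H). Among the H2B genes HIST2H2BE, which rose, has the octamer, CCAAT and TATAAA, while HIST1H2BL, which fell, has CCAAT and TATAAA but not the octamer. HIST1H2BD, which also rose, has no octamer either, and HIST1H2BK, which did not pass, has it. HIST1H1E and HIST1H1C, which lay on opposite sides of the controls, both have the H1 box and CCAAT. HIST1H4H holds none of the 5 motifs.

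In the annotation 13 H2A genes lie head to head with an H2B symbol, with starts 124 to 331 bases apart. The partners HIST2H2BC and HIST2H2BD have no annotated coding sequence. In 4 pairs both genes had 10 or more counts, and in 4 others just 1 of them. HIST1H2BK had 625 counts over the 4 libraries and its partner HIST1H2AH 2, and HIST2H2BE had 161 and its partner HIST2H2AC 11. HIST1H2AC had 671 and HIST1H2BC 82. HIST1H2BL, which fell, had 47, and its partner HIST1H2AI, with 2 and 7 counts in the knockdown and 6 and 3 in the controls, had 18. Both genes were tested in only 1 of the 13 pairs, HIST1H2AC with HIST1H2BC, and neither passed, so the calls of partners cannot be compared.

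The genes that make, process and deposit histones were read from a list of 50, all of which were tested: 29 fell, 5 rose and 16 did not pass, with a median log2 fold change of -0.35. Among all tested genes 22.8% were lower and 23.5% higher, with a median of -0.002, and the counts of the smaller groups that follow stand beside these shares. The 5 that rose became 1 without control library 1, 3 without control library 2, 1 without Knockdown-670, 2 without Knockdown-732 and 0 in DESeq2. Of 7 genes of histone gene transcription 4 fell and 1 rose. NPAT, the cyclin E-CDK2 substrate that switches on histone genes, had 109 and 133 counts in the knockdown and 168 and 159 in the controls and did not pass (log2 fold change -0.34, adjusted p = 0.0798 in edgeR). CASP8AP2 (FLASH), which works with NPAT and the U7 snRNP, fell (log2 fold change -0.49), as did CDK2 (-0.66), CCNE1 (-0.47) and CCNE2 (-2.23), the kinase and cyclins E that act on NPAT. HINFP, an activator of H4 genes, rose (log2 fold change 0.46, adjusted p = 0.0111 in edgeR).

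Of 17 genes of 3′ end processing and translation 7 fell and 3 rose. SLBP was below both controls by a small difference, with 39.0 and 38.1 CPM in the knockdown and 48.4 and 43.9 CPM in the controls (log2 fold change -0.26, adjusted p = 0.0301 in edgeR). CPSF3, the nuclease that makes the cut, fell (log2 fold change -0.45), as did its partner CPSF2 (-0.56), while the scaffold SYMPK rose (0.18). The Sm proteins SNRPB (-0.47), SNRPE (-0.48) and SNRPG (-0.69) fell, and SNRPD3 (0.33) rose. LSM10 (-0.10), LSM11 (-0.42) and ZNF473 (-0.05), of the same group, did not pass. Among 8 genes of histone mRNA decay 3 fell and 1 rose, too few to set apart from the 22.8% of all tested genes that were lower. ERI1, the exonuclease that trims the stem-loop end, fell (log2 fold change -0.84, adjusted p = 5.06e-06 in edgeR), and so did LSM1 and EXOSC10, while ZCCHC6, a uridylyltransferase, rose (0.30).

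Of 18 histone chaperones and deposition factors 15 fell and none rose, with a median log2 fold change of -0.94. HAT1, which acetylates new H4, had the lowest value at -2.08 (adjusted p = 5.31e-09 in edgeR). Of the replication-coupled chaperone CAF-1, the subunits CHAF1A and CHAF1B fell (CHAF1A -1.35), and RBBP4, also a subunit, fell by less (-0.23). ASF1B, the copy linked to proliferation, had a log2 fold change of -1.27 and ASF1A of -0.58. NASP, which stores H3 and H4, had 43.2 and 50.4 CPM in the knockdown and 89.9 and 90.2 CPM in the controls (log2 fold change -0.94). The FACT subunits SSRP1 (-1.02) and SUPT16H (-0.92) fell as well.

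**Figure D5:**
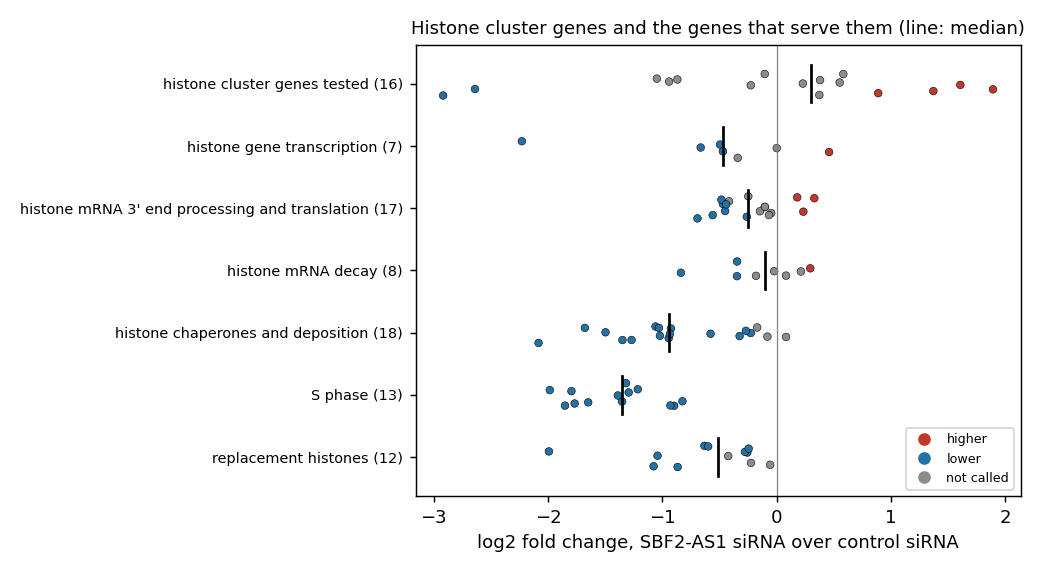
Log2 fold change of SBF2-AS1 siRNA over control siRNA for the histone cluster genes tested and for 6 lists of related genes, 1 point for each gene, with a line at each median. The chaperones and the S phase genes lie almost wholly to the left of 0 (medians -0.94 and -1.35), while the histone cluster genes spread to both sides (median 0.30).

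All 13 S phase genes listed fell (median -1.35 on the log2 scale), among them RRM1 (-1.98), TK1 (-1.39), POLA1 (-1.85) and RRM2 (-1.79), which make nucleotides or start DNA synthesis. These genes moved in the same libraries as the histone genes, and their part in the values of the histone genes was not tested. The genes listed as replacement histones fell in 9 of 12 cases and rose in none (median -0.51). CENPA, the centromeric H3, had a log2 fold change of -1.99, H2AFV of -1.08, H2AFZ of -0.87 and H1F0, a linker histone known from resting cells, of -0.60. H2AFX, named after its values were seen because its mRNA can also end in a stem-loop, had 17.8 and 20.1 CPM in the knockdown and 35.7 and 42.3 CPM in the controls (log2 fold change -1.04, adjusted p = 1.24e-06 in edgeR). The 4 cluster genes that rose did so in libraries in which none of these 12 rose.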

How the data were processed

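What the authors deposited is a single table of read counts by gene symbol for the 4 libraries, used as it stood. Per the labels' protocols, RNA was taken with Trizol and sequenced on the Ion Proton. Per the submitters' processing notes the genome build was GRCh37; the aligner, counter, annotation, RNA selection and strand setting were not given in the sources used here. Reads shared by near-identical or overlapping genes therefore cannot be traced. The table had 0 entries that named no gene.

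Groups came from the sample titles. Replicate libraries differed by more than counting noise (chi-square per gene 3.61 in the knockdown pair and 3.95 in the control pair), so none was a copy. Genes were compared in edgeR 4.0.16 (R 4.3.3) with filterByExpr, TMM scaling, robust quasi-likelihood fits and Benjamini-Hochberg adjustment over 16120 genes at 0.05. Standard errors were taken from the F statistic, as the size of the log2 value over the square root of F. Pooled count ratios have exact binomial (Clopper-Pearson) intervals. The script was tested on simulated data.

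The members and lists were chosen with earlier results of these data known. Counts per library, log2 fold change and adjusted p were given, by rule, for the 2 members of most counts in each class (or those of at least 5 CPM). They were also given for the called member with the largest rise and fall in each class. CPM and standard errors were given for some of these members only. Symbols were matched to GENCODE release 29 (all 75 members) and, through synonyms, to RefSeq promoters (60 members) on GRCh38. Alternatives were other scalings, filters and tests (DESeq2 1.42.0, limma-voom 3.58.1), each library left out and, added after seeing the data, a correction for GC content and length.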

Additional observations from a re-analysis of the deposited data

How the results depend on the processing

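Across 14 alternatives, 195 of 209 recomputed fold changes of single members kept their direction and their side of the threshold, 6 came to pass, 3 were lost and 5 changed sign. The sign changes all concerned members that passed in neither fit: with 1 library left out, HIST1H2BJ (log2 -0.23) ran from -0.84 to 0.87, above 0 without control library 2 and, at 0.16, without Knockdown-670. HIST1H2BK (-0.10) ran from -0.22 to 0.016, above 0 without control library 1. HIST1H3H (0.38) ran from -0.10 to 1.10, below 0 without control library 1 and, at -0.03, without Knockdown-732. HIST1H4H (log2 1.73 to 2.11), HIST1H3E (1.14 to 1.96) and HIST2H2BE (1.26 to 1.46) passed under every alternative that tested them. The 4 members that rose became 2 with a filter of 5 CPM in 2 libraries, which leaves fewer genes to test. The 2 that fell became 0 with that filter, 4 at an adjusted p of 0.1 and 0 in DESeq2, which gave HIST1H1E and HIST1H2BL no adjusted p. With 1 library left out, 4 to 5 members were higher and 1 to 2 lower. In the list of histone mRNA and chaperone genes, the 5 that rose became 1 with library size only, which shifts the median of all genes to -0.07, and 0 in DESeq2, and were 1 to 3 with 1 library left out; the cause was not tested. The counts over all genes, of the fallen genes of that list and of the S phase and replacement lists stayed within 1.5 times. Depth limits what can be called for members with few counts. No paired analysis was possible because the groups share no replicate numbers.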
